A study of Homo sapiens with 6 samples.

Results

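The NF-kB genes described here are 44 genes of 60569 gene names in the deposited table: the subunits of the transcription factor, the kinases and receptors upstream of it, its feedback inhibitors, and its chemokine, cytokine, survival and adhesion targets. They were taken by symbol from a list written from general knowledge of the pathway, with earlier results of these data known. Their values come from 6 RNA-seq libraries of MDA-MB-453, a long-established human line derived from a breast cancer. In 3 libraries the cells had been transfected with a construct that overexpresses ZNF207, a zinc finger protein of spindle assembly, and in 3 the cells had received the control vector. Both groups are therefore transfected cells, and no untransfected library was analysed here. The sources used here give neither the time after transfection nor the promoter of the construct.

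NF-kB factors are dimers of 5 related proteins that are held inactive by IkB inhibitors until a kinase complex, IKK, marks the inhibitor for destruction. The freed dimers switch on genes for chemokines, cytokines, adhesion molecules and survival factors, and also genes for their own inhibitors, so the response limits itself. In breast cancer lines the pathway is known as a source of inflammatory chemokines and of survival signals downstream of TNF family receptors.

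ZNF207 itself stood at 885, 786 and 750 FPKM in the overexpression libraries and at 69.2, 67.0 and 63.7 FPKM in the controls (exact two-sided permutation p = 0.1, the smallest that 3 against 3 libraries allow). FPKM is a fragment number scaled by transcript length and library size, so levels of different genes can be compared, but read depth is unknown. Markers of the line were present, with ERBB2, FOXA1, SPDEF and the keratins KRT8, KRT18 and KRT19 each above 60 FPKM in every library, while the apocrine marker PIP was listed at 0 in 4 of the 6 libraries and reached 0.205 FPKM. The 9 line markers together summed to between 6109 and 6182 FPKM in overexpression libraries and between 6429 and 6833 FPKM in controls. KRT8 and KRT19 were lower in every overexpression library than in any control. FOXA1 (147 to 155 against 129 to 146 FPKM) and FGFR4 (57.8 to 72.5 against 49.5 to 56.1 FPKM) were higher in every overexpression library. The 7 leukocyte markers summed to between 1.09 and 2.09 FPKM in overexpression libraries and between 1.17 and 1.74 FPKM in controls. For the 5 endothelial markers the sums were 1.12 to 2.10 FPKM and 1.58 to 2.24 FPKM. The 6 fibroblast markers summed to between 8.27 and 10.5 FPKM in overexpression libraries and between 9.49 and 11.7 FPKM in controls, nearly all of it COL1A1, and without COL1A1 the sums were at most 0.554 and 0.672 FPKM. Mitochondrially encoded transcripts made up 5.71% to 6.64% of FPKM in overexpression libraries and 4.36% to 5.42% in controls. The mitochondrial share and the sum of the line markers therefore part the groups, as do some NF-kB genes below, and their part in those values was not tested.

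None of the NF-kB genes changed by the test used, and the estimates lay mostly on the higher side. A gene was tested when its FPKM was 1 or more in at least 3 libraries, and 38 of the 44 genes passed, 36 of them with 1 FPKM or more in all 6 libraries. By limma with Benjamini-Hochberg adjustment over 13185 genes, 0 of 38 had an adjusted p under 0.05, where 0.212% of all tested genes did. An unadjusted p under 0.05 was reached by 10 members with higher values, 26.3% of those tested, beside 5.08% of all tested genes. The 2 with lower values, IKBKB and TNFAIP8, were 5.26% of those tested, beside 7.03% of all tested genes, and neither reached it once control replicate 2, or replicate 2 or 3 of the overexpression libraries, was left out. Estimates were above 0 for 31 of 38 members (81.6%), beside 47.6% of all tested genes. With 1 library left out, 27 to 30 of the 37 or 38 members then tested were above 0. The 31 include all 7 members whose estimate changed sign under some alternative, named in the closing section. The median log2 change was 0.09 over the 38 members and -0.01 over all tested genes, on the log2(FPKM + 1) scale, which understates the change of genes with low values. All 3 overexpression libraries lay above all 3 controls for 10 members (26.3%, beside 7.61% of all tested genes) and below them for 2 members (5.26%, beside 10.4%). Since the members were chosen with earlier results of these data known, these shares only describe them and were not tested against those of all genes. In these bulk libraries, fewer cells that express a gene and less RNA per cell cannot be told apart.

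**Figure D1:**
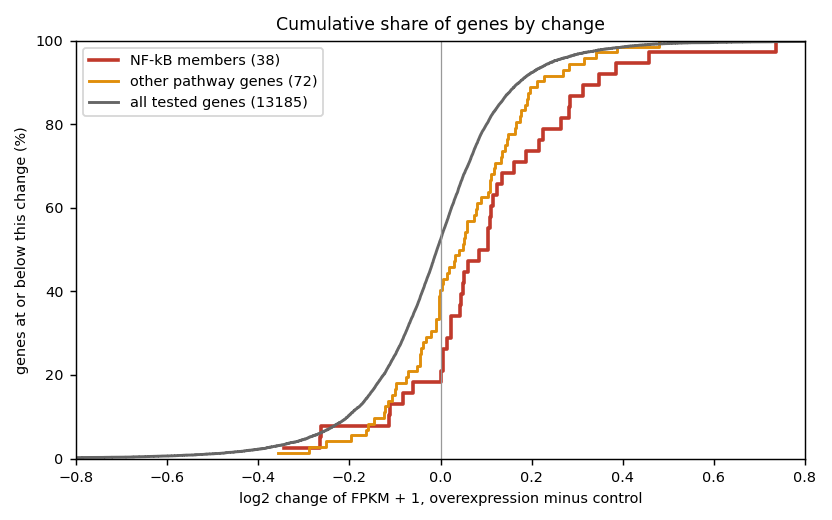
Cumulative share of genes, in percent, at or below each log2 change of FPKM + 1 (overexpression minus control) for the 38 tested NF-kB members, 72 other tested genes of the pathway and all 13185 tested genes. The member curve lies to the right of that of all genes over most of its length, with medians of 0.09 and -0.01.

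Sequences just upstream of the start sites show what many of these genes share. RefSeq promoter windows (GRCh38.p14, 250 bases before to 50 after a gene's start) were matched by symbol for 38 of the 44 members, all but RELB, IKBKB, CD40, NFKBIE, RIPK2 and CCL2. Both strands were searched for GGGNNTTTCC, a form of the kappa-B element that NF-kB dimers bind, and for GGAATTTCC, a shorter form that overlaps it where both match. Some symbols had several windows (35116 windows in all), and a symbol was counted when any of its windows held the motif. The longer motif was in 18 of 38 members (47.4%) and in 2.33% of all 27305 symbols with a window. The shorter motif was in 11 members (28.9%) and in 0.56% of all symbols. The 200 bases before the start are printed for the 3 GRO chemokines and CXCL8, which are relatives with different values here. Also printed are CXCL10, NFKBIA, TNFAIP3 and NFKB1, picked from the members with a match whose groups did not overlap. Of the members not printed whose groups did not overlap, NFKBIB held both motifs, and TNIP1, with lower values, the longer one. IKBKE, SOD2 and TNFAIP8 held neither, and CCL2 had no matched window. Where a gene had several windows, the first by position with a match in these bases was printed. The printed bases read 5′ to 3′ on the gene's strand, with motif matches on either strand in capitals.
CXCL8 (chr4:73740369-73740568, plus strand): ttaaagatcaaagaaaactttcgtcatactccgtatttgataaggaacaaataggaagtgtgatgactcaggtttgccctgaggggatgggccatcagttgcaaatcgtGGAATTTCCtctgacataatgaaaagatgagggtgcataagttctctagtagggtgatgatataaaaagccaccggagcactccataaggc
CXCL1 (chr4:73869193-73869392, plus strand): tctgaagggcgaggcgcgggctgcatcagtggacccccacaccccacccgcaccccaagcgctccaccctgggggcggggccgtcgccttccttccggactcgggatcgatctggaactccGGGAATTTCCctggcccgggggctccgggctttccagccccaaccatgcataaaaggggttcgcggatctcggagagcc
CXCL2 (chr4:74099196-74099395, minus strand): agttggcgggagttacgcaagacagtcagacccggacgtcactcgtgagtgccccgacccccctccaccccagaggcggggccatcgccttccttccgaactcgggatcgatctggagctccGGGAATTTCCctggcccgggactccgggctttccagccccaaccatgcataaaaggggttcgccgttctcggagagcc
CXCL3 (chr4:74038690-74038889, minus strand): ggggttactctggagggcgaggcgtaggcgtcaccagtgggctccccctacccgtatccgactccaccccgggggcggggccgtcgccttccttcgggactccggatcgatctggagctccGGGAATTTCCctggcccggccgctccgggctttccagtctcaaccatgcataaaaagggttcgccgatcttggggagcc
CXCL10 (chr4:76023498-76023697, minus strand): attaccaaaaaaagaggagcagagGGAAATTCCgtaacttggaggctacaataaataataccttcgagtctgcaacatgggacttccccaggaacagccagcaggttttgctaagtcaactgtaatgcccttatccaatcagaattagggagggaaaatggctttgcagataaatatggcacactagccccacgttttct
NFKBIA (chr14:35404750-35404949, minus strand): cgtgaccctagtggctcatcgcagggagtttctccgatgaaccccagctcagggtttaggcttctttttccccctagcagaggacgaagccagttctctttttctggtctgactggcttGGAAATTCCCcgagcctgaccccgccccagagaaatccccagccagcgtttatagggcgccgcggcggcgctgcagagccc
TNFAIP3 (chr6:137867059-137867258, plus strand): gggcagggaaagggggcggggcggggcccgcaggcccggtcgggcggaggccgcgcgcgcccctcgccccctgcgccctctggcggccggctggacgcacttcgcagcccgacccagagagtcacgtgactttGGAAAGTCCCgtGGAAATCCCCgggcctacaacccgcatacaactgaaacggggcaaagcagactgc
NFKB1 (chr4:102501159-102501358, plus strand): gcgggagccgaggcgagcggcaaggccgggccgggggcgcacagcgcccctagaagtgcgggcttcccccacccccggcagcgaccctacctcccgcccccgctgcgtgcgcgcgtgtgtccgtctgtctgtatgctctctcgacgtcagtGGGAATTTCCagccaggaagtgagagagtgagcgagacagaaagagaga
The long match in CXCL1, CXCL2 and CXCL3 is the same 10 bases, which NFKB1 also holds, and begins 78 or 79 bases before the start of the 3 chemokine genes and 49 bases before that of NFKB1. Over these 200 bases the 3 GRO promoters were 76.9% to 80.8% identical to one another and 43.4% to 44.4% identical to CXCL8, whose match is the short form and begins 91 bases before the start. The CXCL10 match is on the opposite strand, as are both matches in TNFAIP3 and the match in NFKBIA. A match describes these letters and does not show that NF-kB is bound there. Members with either motif numbered 21, of which 18 were tested, 16 of these with an estimate above 0 (median log2 change 0.11). Of the 17 matched members with no such letters in the window, 15 were tested and 12 had an estimate above 0 (median 0.06). Among all tested genes 47.6% had an estimate above 0 (median -0.01). Whether the motif goes with the estimate was not tested.

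Levels of the 44 genes spanned a wide range. Averaged over the 6 libraries, 11 genes stood at 20 FPKM or more, 18 between 5 and 20, 9 between 1 and 5, and 6 under 1 FPKM. The inhibitor gene NFKBIA was the most abundant in every library. The 6 that failed the filter were CD40, CXCL1, CCL20, IL6, IL1A and IL1B. Together the 44 genes took 0.116% to 0.121% of FPKM in overexpression libraries and 0.106% to 0.110% in controls, and NFKBIA alone made up 18.5% to 19.8% and 16.3% to 17.8% of the members' sum.

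**Figure D2:**
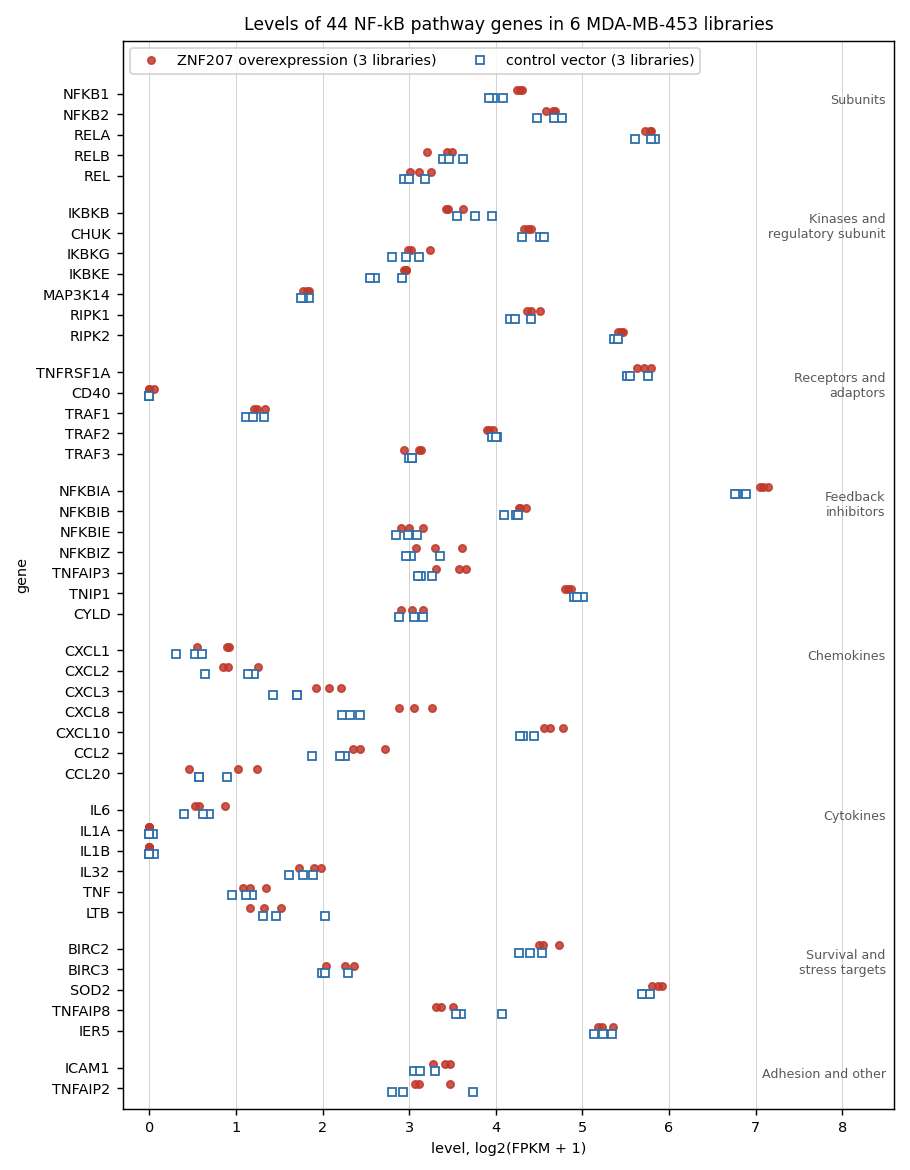
Level of each of the 44 genes in each library, as log2(FPKM + 1), by role, with overexpression libraries as filled circles above control libraries as open squares. NFKBIA lies highest, CD40, IL1A and IL1B lie at or near 0, and CXCL8 shows the clearest gap between the groups.

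Among receptors and adaptors, 4 of 5 genes were tested and none passed the test or had groups that did not overlap. Of all tested genes, 0.212% passed, 7.61% lay wholly above the controls and 10.4% wholly below. TNFRSF1A, the main receptor for TNF, averaged 51.4 ± 2.85 FPKM in overexpression libraries and 47.8 ± 4.46 FPKM in controls (SD, n = 3 each; log2 change 0.10, SE 0.08, limma adjusted p = 0.631). CD40, a receptor best known from B cells and other antigen-presenting cells, was listed at 0.0364 FPKM in overexpression replicate 1 and at 0 in the other 5 libraries. The adaptors that link these receptors to kinases and ubiquitin ligases were TRAF2 at 14.2 ± 0.391 and 14.9 ± 0.347 FPKM, TRAF3 at 7.39 ± 0.592 and 7.11 ± 0.0822 FPKM, and TRAF1, itself an NF-kB target, at 1.4 ± 0.117 and 1.32 ± 0.168 FPKM in overexpression and control libraries. Adjusted p-values of the 4 tested genes ran from 0.631 to 0.929, and their log2 changes from -0.06 to 0.10.

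The kinases gave small estimates of both signs. IKBKB, the catalytic IKK subunit that acts on IkB proteins, stood at 11.3, 9.88 and 9.76 FPKM in overexpression libraries, against 10.8, 12.6 and 14.6 FPKM in controls. The groups overlapped through control replicate 1, and the log2 change was -0.26 (SE 0.11, limma adjusted p = 0.39), or -0.16 without control replicate 3. IKBKE, a non-canonical IKK relative with a known role in breast cancer and in antiviral signalling, had 6.81, 6.79 and 6.66 FPKM in overexpression libraries, against 5.07, 4.83 and 6.57 FPKM in controls. Its overexpression values were tightly grouped, and control replicate 3 lay just under them (log2 change 0.27, SE 0.12, adjusted p = 0.407). So IKBKE was higher and IKBKB lower by estimate, and neither passed the test.

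CHUK, the other catalytic IKK subunit and the one used by the alternative pathway, averaged 19.7 ± 0.611 FPKM in overexpression libraries and 20.9 ± 2.00 FPKM in controls. IKBKG, the regulatory subunit also called NEMO, averaged 7.50 ± 0.848 and 6.81 ± 0.852 FPKM. Its value is uncertain, since the annotated pseudogene IKBKGP1 is 100% identical to it over 1073 bases. RIPK1, the kinase and scaffold at the TNF receptor, averaged 20.5 ± 1.17 FPKM in overexpression libraries and 18.3 ± 1.71 FPKM in controls (log2 change 0.16, adjusted p = 0.475). RIPK2, which serves NOD receptors, averaged 42.4 ± 0.998 and 40.9 ± 0.553 FPKM, and MAP3K14, the NIK kinase of the alternative pathway, 2.51 ± 0.0815 and 2.46 ± 0.121 FPKM. Their adjusted p-values were 0.752 and 0.959.

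Of the 5 subunits, only NFKB1 (20%) had groups that did not overlap, beside 7.61% of all tested genes wholly above and 10.4% wholly below. NFKB1 encodes the p105 precursor of p50, is itself an NF-kB target, and lies on chromosome 4 from 102501329 to 102617302 (GRCh38, plus strand). It stood at 18.4, 18.7 and 17.9 FPKM in overexpression libraries, against 14.6, 14.2 and 15.9 FPKM in controls. Every overexpression library was above every control, with a 1.23-fold higher mean (log2 change 0.28, SE 0.07, 95% interval 0.12 to 0.45, adjusted p = 0.151), short of the threshold.

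RELA, the p65 subunit that carries the main activation domain, was the most abundant subunit, at 53.4 ± 1.39 FPKM in overexpression libraries and 52.6 ± 4.37 FPKM in controls. Its log2 change was 0.02, and the 95% interval of -0.13 to 0.18 holds differences of either sign. NFKB2, the precursor of p52, averaged 24.0 ± 0.902 and 24.0 ± 2.54 FPKM (log2 change 0.01, interval -0.18 to 0.19). RELB, the partner of p52, averaged 9.44 ± 1.05 FPKM in overexpression libraries and 10.3 ± 0.955 FPKM in controls, and REL averaged 7.74 ± 0.726 and 7.25 ± 0.734 FPKM. Neither differed beyond the spread of its libraries (log2 changes -0.11 and 0.08, adjusted p 0.719 and 0.797).

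Feedback inhibitors held some of the most separated values. NFKBIA encodes IkB-alpha, the inhibitor that NF-kB induces to end its own activity, on the minus strand of chromosome 14 from 35401511 to 35404749. Its values were 134, 131 and 140 FPKM in overexpression libraries, against 117, 109 and 107 FPKM in controls. The lowest overexpression library was above the highest control, with a 1.22-fold higher mean (log2 change 0.28, SE 0.05, 95% interval 0.16 to 0.40). The adjusted p was 0.0848, and it ran from 0.0531 to 0.281 over the alternatives, so NFKBIA passed the threshold in none of the 14.

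TNFAIP3 encodes A20, a ubiquitin-editing enzyme that shuts off signalling from the TNF receptor. Its values were 11, 11.6 and 8.91 FPKM in overexpression libraries, against 7.80, 8.57 and 7.60 FPKM in controls. Overexpression replicate 3 was close to control replicate 2, and the other overexpression libraries lay well above (1.31-fold, log2 change 0.35, SE 0.11, 95% interval 0.11 to 0.59, adjusted p = 0.236). An annotated antisense gene, AL357060.1, overlaps it, and without strand information the reads of both cannot be told apart.

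TNIP1, which binds A20, lay on the other side: it had 27.4, 28.2 and 26.9 FPKM in overexpression libraries, against 28.9, 31.0 and 29.7 FPKM in controls. The groups did not overlap, and the log2 change was -0.11 (SE 0.06, adjusted p = 0.492). NFKBIB, encoding IkB-beta, had 18.3, 18.4 and 19.4 FPKM in overexpression libraries, against 16.1, 17.8 and 18.1 FPKM in controls. These values also did not overlap, by a narrow margin (log2 change 0.10, adjusted p = 0.611, and 0.06 without control replicate 1), and SIRT2 overlaps the gene on the other strand. NFKBIZ, a nuclear IkB-like protein that is needed for some late target genes, had 11.2, 8.86 and 7.46 FPKM in overexpression libraries and 9.23, 7.12 and 6.83 FPKM in controls. Its library number 1 was the highest in each group, and the log2 change was 0.22 (SE 0.15, adjusted p = 0.611). It was 0.08 without overexpression replicate 1 and 0.34 without overexpression replicate 3 or control replicate 1.

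NFKBIE, encoding IkB-epsilon, averaged 7.14 ± 0.754 FPKM in overexpression libraries and 6.90 ± 0.647 FPKM in controls. CYLD, a deubiquitinase that restrains the pathway and acts as a tumour suppressor, averaged 7.21 ± 0.716 and 7.21 ± 0.802 FPKM. Over the 7 inhibitor genes, 0 passed the test (0.212% of all tested genes) and 6 had an estimate above 0 (beside 47.6%). The median log2 change was 0.10. That median was 0.07 without control replicate 1 and 0.13 without control replicate 3.

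**Figure D3:**
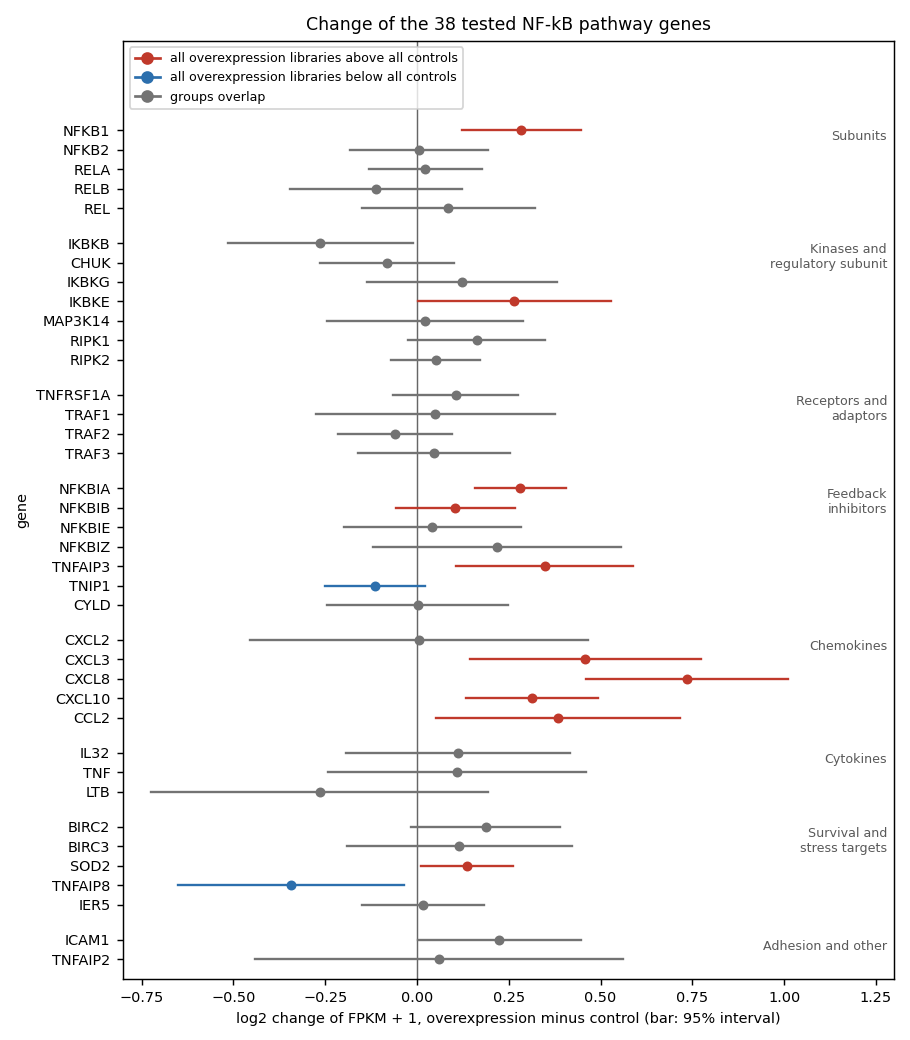
Log2 change of FPKM + 1 (overexpression minus control) with its 95% interval for the 38 tested members, by role, coloured by whether the 3 overexpression libraries lie above, below or among the 3 controls. The 4 chemokines CXCL8, CXCL3, CCL2 and CXCL10 reach from 0.31 to 0.74, and no member passed the adjusted threshold.

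Chemokines gave the largest estimates. CXCL8, the neutrophil attractant interleukin-8, stood at 8.58, 7.33 and 6.35 FPKM in overexpression libraries, against 4.42, 3.69 and 3.99 FPKM in controls. The lowest overexpression value was well above the highest control, and the mean was 1.84-fold higher. The log2 change of 0.74 (SE 0.12, 95% interval 0.46 to 1.01) had a limma adjusted p of 0.0541, just over the threshold. It was under the threshold with a filter at an FPKM of 5 (adjusted p = 0.0361), which CXCL8 passes only through its overexpression libraries. Over all 14 alternatives the adjusted p ran from 0.0345 to 0.293 and the log2 change from 0.64 to 0.86.

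The GRO chemokines, which attract neutrophils through the same receptor family as CXCL8, were less abundant. CXCL3 had 3.65, 2.80 and 3.21 FPKM in overexpression libraries, against 2.26, 1.70 and 2.26 FPKM in controls. Its groups did not overlap (1.55-fold, log2 change 0.46, SE 0.14, adjusted p = 0.235). CXCL2 had 1.39, 0.806 and 0.879 FPKM in overexpression libraries, against 1.32, 0.564 and 1.21 FPKM in controls, fully overlapping (log2 change 0.01, interval -0.46 to 0.47). CXCL1 had 0.887, 0.471 and 0.869 FPKM in overexpression libraries, against 0.444, 0.244 and 0.531 FPKM in controls, and did not pass the filter. Its groups overlapped, and with no filter its log2 change was 0.31 (limma adjusted p = 0.651). The transcripts of CXCL1, CXCL2 and CXCL3 align to one another with 88.6% to 91.8% identity over 289 to 1102 columns, and how shared reads were assigned is not given, so the split among these genes is uncertain.

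CXCL10, a T cell attractant known as a target of interferon as well as of NF-kB, was the most abundant chemokine. It stood at 26.4, 23.8 and 22.5 FPKM in overexpression libraries, against 20.7, 18.8 and 18.4 FPKM in controls. The groups did not overlap (1.26-fold, log2 change 0.31, SE 0.08, 95% interval 0.13 to 0.49, adjusted p = 0.153). The gene (chromosome 4, 76021117 to 76023497, minus strand) lies within ART3 on the opposite strand, so its value is uncertain without strand information. CCL2, a monocyte attractant, had 4.09, 5.60 and 4.38 FPKM in overexpression libraries, against 3.80, 2.67 and 3.61 FPKM in controls. Its groups were separate by a small margin (1.4-fold, log2 change 0.38, SE 0.15, adjusted p = 0.333). CCL20, which attracts cells bearing CCR6, had 1.03, 1.37 and 0.372 FPKM in overexpression libraries and 0.862, 0.491 and 0.484 FPKM in controls, with the lowest value of all in an overexpression library. Of the 5 tested chemokines, all but CXCL2 had overexpression libraries wholly above the controls (4 of 5, beside 7.61% of all tested genes) and an unadjusted p under 0.05 (4 of 5, beside 5.08%), and 0 passed the adjusted threshold (0.212% of all tested genes).

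**Figure D4:**
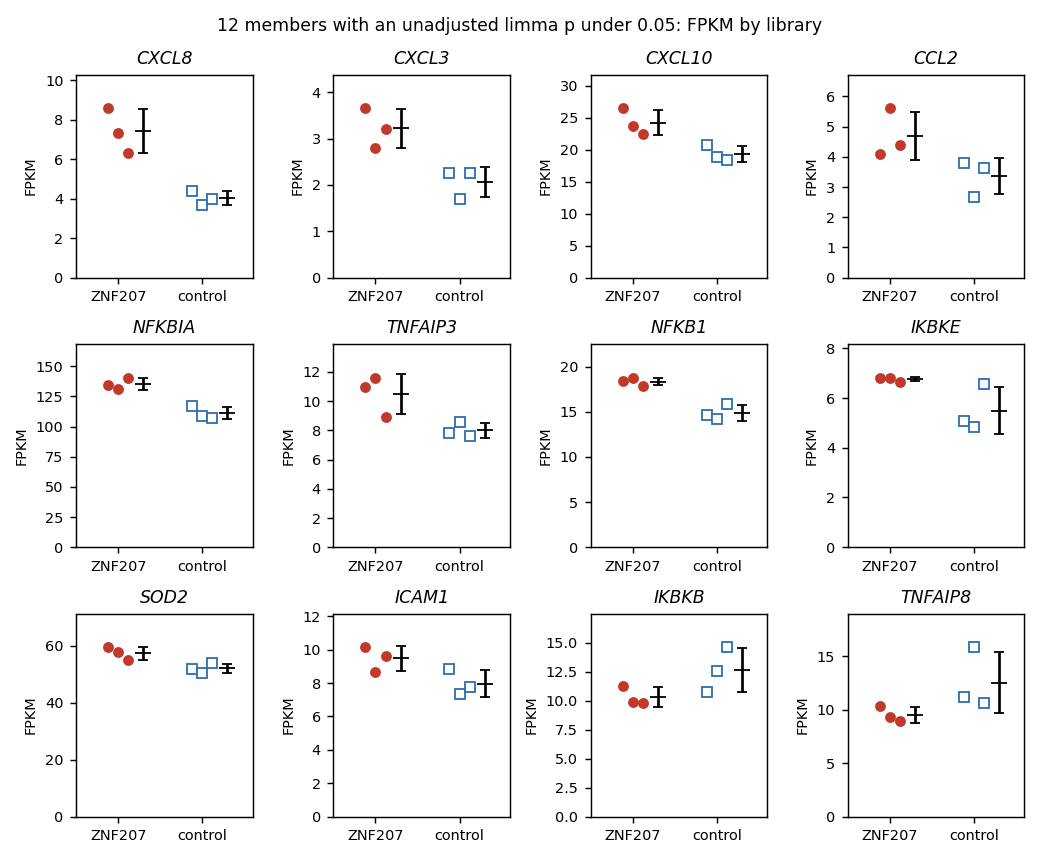
FPKM by library for the 12 members with an unadjusted p under 0.05, overexpression (filled circles) left of control (open squares), with the mean and SD of 3 libraries as black bars and each axis starting at 0. CXCL8 has no overlap between 6.35 to 8.58 FPKM in overexpression libraries and 3.69 to 4.42 FPKM in controls, while ICAM1 and IKBKB overlap.

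Cytokine genes were low throughout. IL1A and IL1B, the genes of interleukin-1 alpha and beta, were listed at 0 in all overexpression libraries and in 2 of 3 controls, with 0.0342 and 0.0353 FPKM in control replicate 1. IL6 had 0.441, 0.838 and 0.495 FPKM in overexpression libraries and 0.323, 0.614 and 0.534 FPKM in controls. TNF, the ligand of TNFRSF1A, had 1.54, 1.23 and 1.12 FPKM in overexpression libraries and 0.944, 1.27 and 1.18 FPKM in controls (log2 change 0.11, SE 0.16, adjusted p = 0.832). LTB, a ligand that signals to the alternative pathway, had 1.87, 1.51 and 1.23 FPKM in overexpression libraries, against 3.10, 1.75 and 1.48 FPKM in controls. Control replicate 1 set its mean difference: the log2 change was -0.26 (adjusted p = 0.654), and -0.05 without that library. IL32, a proinflammatory cytokine of epithelial and T cells, averaged 2.67 ± 0.322 and 2.39 ± 0.321 FPKM in overexpression and control libraries. Groups overlapped for all 3 tested cytokine genes, which is also the case for most of all tested genes, where 7.61% were wholly above and 10.4% wholly below the controls.

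Survival targets differed in direction by estimate. SOD2, the mitochondrial superoxide dismutase, had 59.3, 57.6 and 54.9 FPKM in overexpression libraries, against 51.9, 50.4 and 53.7 FPKM in controls. The groups did not overlap, by a small margin (log2 change 0.14, SE 0.06, adjusted p = 0.37), and SOD2 had a second, near-empty row in the table that was not used. WTAP and ACAT2 overlap its annotated span on the opposite strand, so its value is uncertain without strand information. TNFAIP8, an anti-apoptotic TNF-induced gene, had 10.4, 9.33 and 8.91 FPKM in overexpression libraries, against 11.1, 15.8 and 10.6 FPKM in controls. It was the member with the lowest estimate (log2 change -0.34, SE 0.14, adjusted p = 0.352), and that estimate was -0.18 without control replicate 2. BIRC2, the ubiquitin ligase cIAP1, averaged 23.1 ± 2.07 FPKM in overexpression libraries and 20.2 ± 1.96 FPKM in controls (log2 change 0.19, adjusted p = 0.448). Its inducible relative BIRC3, cIAP2, averaged 3.68 ± 0.523 and 3.32 ± 0.496 FPKM, and the stress-response gene IER5 37.2 ± 2.33 and 36.8 ± 2.78 FPKM.

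ICAM1, the adhesion molecule that leukocytes bind, had 10.1, 8.66 and 9.63 FPKM in overexpression libraries, against 8.85, 7.33 and 7.74 FPKM in controls. The groups overlapped, since control replicate 1 exceeded overexpression replicate 2 (log2 change 0.22, SE 0.10, adjusted p = 0.409). TNFAIP2, another TNF-induced gene, had 7.67, 10.1 and 7.38 FPKM in overexpression libraries and 12.4, 5.98 and 6.59 FPKM in controls. Its highest and lowest values were both controls, and its log2 change was 0.06 with all libraries. Leaving out 1 library moved it between -0.12, without control replicate 2, and 0.35, without control replicate 1.

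Across libraries, the members did not all move together. Overexpression replicate 1 held the highest value for 12 of the 38 tested members, and overexpression replicates 2 and 3 held it for 6 and 8. Controls held it for the other 12, 5 each in replicates 1 and 2 and 2 in replicate 3. Control replicate 2 held the lowest value for 18 members, more than any other library, and without it 6 rather than 10 members were higher at an unadjusted p under 0.05 and the median log2 change was 0.07. The median coefficient of variation of the tested members was 8.28% in overexpression libraries and 9.64% in controls.

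Other genes of the pathway were described from 4 lists. Lists of receptors, adaptors and ubiquitin enzymes, further inhibitors and further targets held 99 genes, of which 72 were tested. By limma 0 of these passed the adjusted threshold, beside 0.212% of all tested genes. At an unadjusted p under 0.05, 11 were higher (15.3%, beside 5.08% of all tested genes) and 3 lower (4.17%, beside 7.03%), and the median log2 change was 0.04. The 3 with the smallest p in each list are given here.

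Among receptors (10 of 17 tested), LTBR, the receptor of lymphotoxin, averaged 62.2 ± 2.74 FPKM in overexpression libraries and 53.0 ± 3.06 FPKM in controls (log2 change 0.23, adjusted p = 0.184). IL1R1, the interleukin-1 receptor, averaged 1.49 ± 0.234 and 0.804 ± 0.367 FPKM (0.48, adjusted p = 0.342). It passed the filter through its 3 overexpression libraries, with 1 FPKM or more in only 1 control, and is among the 11 higher genes. TLR3, a sensor of double-stranded RNA, averaged 5.71 ± 1.04 FPKM in overexpression libraries and 4.53 ± 0.999 FPKM in controls (0.28, adjusted p = 0.516). Among adaptors and ubiquitin enzymes (23 of 24 tested), MYD88, the adaptor of Toll-like and interleukin-1 receptors, averaged 62.4 ± 4.56 FPKM in overexpression libraries and 51.8 ± 6.92 FPKM in controls (log2 change 0.27, adjusted p = 0.29). Its partner kinase IRAK4 averaged 23.0 ± 0.708 and 20 ± 1.06 FPKM (0.19, adjusted p = 0.295), and BCL10, an adaptor in lymphocyte signalling, 13.7 ± 0.744 and 15.4 ± 1.71 FPKM (-0.16, adjusted p = 0.532). Estimates were above 0 for 5 of the 10 receptors and 10 of the 23 adaptors and ubiquitin enzymes, beside 47.6% of all tested genes. The receptors' median log2 change was 0.05, and it was 0.09 without control replicate 2 and -0.01 with no filter on low values.

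Further inhibitors (16 of 16 tested, 13 with an estimate above 0, median log2 change 0.06) included PDLIM2, which promotes removal of RELA from the nucleus. It averaged 14.9 ± 2.57 FPKM in overexpression libraries and 19.2 ± 1.26 FPKM in controls (log2 change -0.36, SE 0.12, adjusted p = 0.251), with no overlap, and the log2 change was -0.23 without overexpression replicate 3. TANK, a TRAF-binding protein, averaged 29.8 ± 2.06 and 26.1 ± 1.96 FPKM (0.18, adjusted p = 0.38), and COMMD1, another protein that promotes RELA turnover, 22.6 ± 2.94 and 19.3 ± 1.07 FPKM (0.21, adjusted p = 0.412, and 0.11 without overexpression replicate 1). Further targets (23 of 42 tested, 15 with an estimate above 0) had a median log2 change of 0.11 and held values of both signs. Their median was 0.05 to 0.09 when 1 library was left out and 0.04 with no filter on low values. TNFSF10, among the 15, passed the filter only through its overexpression libraries, with all its controls under 1 FPKM. Of all tested genes, 47.6% had an estimate above 0. IER3, an early-response gene, averaged 64.7 ± 3.62 FPKM in overexpression libraries and 79.4 ± 5.98 FPKM in controls (log2 change -0.29, SE 0.07, adjusted p = 0.13). NUAK2, a stress-regulated kinase, averaged 5.77 ± 0.602 and 4.17 ± 0.316 FPKM (0.39, adjusted p = 0.207), and KYNU, an enzyme of tryptophan breakdown, 115 ± 1.87 and 101 ± 4.11 FPKM (0.18, adjusted p = 0.208). The groups of IER3, NUAK2 and KYNU, which were picked by their small p, did not overlap. Of the 23 tested further targets, 6 lay wholly above the controls (26.1%, beside 7.61% of all tested genes). Wholly below them lay 2 (8.7%, beside 10.4%).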

How the data were processed

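RNA of MDA-MB-453 cells was sequenced in 3 ZNF207 overexpression and 3 control vector libraries, which the design text describes as biological replicates. The deposited table holds FPKM values made by the authors, 1 column per library. The genome build was hg38 and the tools included RSEM 1.3.1, DESeq2 1.4.5 and Bowtie2, per the submitters' processing notes. What each tool did, the annotation and the strandedness: not given in the sources used here. Columns were tied to groups and replicates by their names alone.

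Where a symbol had several rows (60658 rows, 60569 names), only that of highest mean entered. Depth is unknown: between any pair of libraries, 0.742% or fewer of the low genes had a common ratio (tolerance 0.001), so whole reads could not be recovered. Identical values occurred for at most 8 tested genes in any pair. The analysis took log2(FPKM + 1) of the 13185 genes that reached an FPKM of 1 in 3 or more libraries, with limma 3.58.1 in R 4.3.3 (mean-variance trend, two-sided, Benjamini-Hochberg adjustment over all tested genes, threshold 0.05). The procedure was tested on simulated data. Gene coordinates are GENCODE v29 (GRCh38), for the 35 of 44 members that lie inside the listed locus once. The listed locus is shared with another row for 21 members. Alternatives were another pseudocount (0.1), filter, scaling and variance model, a block for replicate number, and leaving out each library in turn. The members and lists were chosen with earlier results of these data known, so no list was tested. Named genes are ZNF207, the 44 members, and from each other list the called genes and the 3 with the smallest p.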

Additional observations from a re-analysis of the deposited data

How the results depend on the processing

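The number of NF-kB members that passed the adjusted threshold was 0 in the reported analysis and in 12 of 14 alternatives, and was 1, CXCL8, with a filter at an FPKM of 5 and with the replicate number as a block (adjusted p 0.0361 and 0.0345). CXCL8 reaches the filter at 5 only through its overexpression libraries, so that filter is not independent of the difference. The median log2 change of the members ran from 0.07 to 0.12 over all alternatives. Estimates changed sign under some alternative for NFKB2, RELA, NFKBIE, CYLD, CXCL2, IER5 and TNFAIP2, and for 0 of the 38 tested members under TPM, median-of-ratios or quantile scaling. With 1 library left out, the log2 change lay between 0.12 and 0.25 for BIRC2, 0.16 and 0.42 for TLR3, -0.17 and -0.03 for RELB, and -0.41 and -0.05 for LTB. Higher members at an unadjusted p under 0.05 numbered 10 in the reported analysis, 6 with a filter at an FPKM of 5, which leaves 29 tested, and 6 without control replicate 2; lower members numbered 0 to 2. The number of all genes past the threshold was 28 in the reported analysis, 4 with no filter, 64 with a filter at an FPKM of 5, 17 with median-of-ratios scaling, 5 without a variance trend, and 4 to 36 when 1 library was left out. With no filter 26685 genes were tested, and with the filter at 5 there were 9835; the cause of the other differences was not tested.

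With the replicate block 145 genes passed. Whether same-numbered libraries were paired is not given in the sources used here. Their deviations from the group means correlated at 0.136, 0.00880 and 0.175 across genes for numbers 1, 2 and 3. Pairs of unlike number ran from -0.209 to 0.0705, so numbers 1 and 3 gave the highest values. Overexpression replicate 2 correlated best with control replicate 3 (0.0482). No gene of the 4 other pathway lists passed under any alternative. Read depth is unknown, so the precision of the low chemokine and cytokine values cannot be given from read numbers.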
